A study of Caenorhabditis elegans with 2 samples.

Results

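The col genes form the larger part of the cuticle collagen family of Caenorhabditis elegans. They were taken as every nuclear protein-coding gene with a symbol made of col- and a number in the WBcel235 gene models, the Ensembl name of the ce11 build. This gave 156 of 19973 genes. Per the labels, 2 biological replicates of 1 group were assayed by ChIP-seq with an anti-GFP antibody in strain RW10316, a stable transgenic line whose DIE-1 protein ends in a GFP-FLAG tag; the antibody field of the labels instead reads die-1. Both replicates were whole young adult hermaphrodites, grown for 64 hours after synchronization as starved L1 larvae from bleached adults, and the chromatin was sonicated. No untagged or other group was in the series, and the authors' control library was left out of this work. Peaks were from whole animals, so strong binding in few cells and weak binding in many cells cannot be told apart.

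The cuticle is the exoskeleton of the worm. The epidermis underneath secretes it anew at every molt, and most of its protein is collagen: short chains with runs of Gly-X-Y triplets that fold as trimers and are then cross-linked. Many collagen genes are switched on in waves within each molting cycle, and some, such as col-19, only for the adult cuticle. DIE-1, a zinc finger protein that binds DNA, is known for its part in shaping the embryonic epidermis and in setting the asymmetry of a pair of taste neurons.

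A gene was counted as having a DIE-1 summit when the highest point of a peak fell in a window reaching 1000 bp upstream and 300 bp downstream of any transcript start. Distances are to the nearest annotated start of the gene. The strength of a peak is the authors' own signal value. Its scale is not given in the labels or files, so values were compared within a list only. The authors' 4 lists were the optimal IDR list (1432 peaks), called the reproducible list here, and 3 relaxed lists that also hold weak peaks. The relaxed lists were pooled reads (30000 peaks), replicate 1 (23789) and replicate 2 (29268). The optimal IDR list was made from both replicates, but how its IDR step weighed their agreement was not given. The authors name the pooled list as peaks and background for IDR, so an entry in it is not by itself a binding site. The weakest signal was 79.4 in the reproducible list, 18.4 in the pooled list, 11.4 in replicate 1 and 12.5 in replicate 2. Reads per sample were not used here, so the depth behind each list is unknown.

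The DNA under the summits shows what kinds of place these were. Below are 101 bp windows centred on the strongest pooled summit of 8 windows, from the RefSeq WBcel235 genome, read 5′ to 3′ on the strand of the col gene. Capitals in the col-185 window mark the bases of an annotated tRNA gene. In the col-40 and col-10 windows they mark matches to the short motifs given further down. The col-160 window serves col-159 as well, and the col-142 window lies in the coding exon of its neighbour col-141.
col-185: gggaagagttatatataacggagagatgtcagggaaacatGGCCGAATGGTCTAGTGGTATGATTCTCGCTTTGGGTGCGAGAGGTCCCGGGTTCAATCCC
col-181: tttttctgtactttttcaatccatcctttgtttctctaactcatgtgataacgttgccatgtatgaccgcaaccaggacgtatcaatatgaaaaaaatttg
col-160: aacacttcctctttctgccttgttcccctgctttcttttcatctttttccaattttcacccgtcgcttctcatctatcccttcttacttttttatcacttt
col-178: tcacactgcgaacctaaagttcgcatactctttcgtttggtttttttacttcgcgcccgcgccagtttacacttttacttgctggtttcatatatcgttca
col-38: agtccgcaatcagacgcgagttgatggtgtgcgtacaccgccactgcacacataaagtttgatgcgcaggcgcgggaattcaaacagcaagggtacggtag
col-142: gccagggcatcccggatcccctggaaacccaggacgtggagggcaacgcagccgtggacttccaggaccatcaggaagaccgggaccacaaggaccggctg
col-40: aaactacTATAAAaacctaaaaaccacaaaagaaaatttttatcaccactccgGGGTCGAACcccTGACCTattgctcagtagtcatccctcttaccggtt
col-10: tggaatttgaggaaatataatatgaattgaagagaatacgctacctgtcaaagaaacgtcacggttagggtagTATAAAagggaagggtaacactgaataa
The windows lie at chrX:13511981-13512081, minus strand (col-185); chrX:12104818-12104918, plus strand (col-181); chrV:13202451-13202551, minus strand (col-160); chrX:11198644-11198744, plus strand (col-178). The others lie at chrII:8569467-8569567, minus strand (col-38); chrV:6830273-6830373, plus strand (col-142); chrII:1107894-1107994, minus strand (col-40); chrV:9165309-9165409, minus strand (col-10).

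In the reproducible list, 2 of the 156 col genes (1.28%) had a summit, col-185 and col-181, beside 3.39% of all protein-coding genes. In the pooled list 53 col genes (34%) had a summit, beside 41.6% of all. The replicate 1 list gave 48 col genes (30.8%, all genes 36.5%) and the replicate 2 list 51 (32.7%, all genes 40.9%). Both replicate lists held a summit for 33 (21.2%, all genes 26.4%). At least 1 of the 4 lists held a summit for 71 (45.5%, all genes 53.2%), and 85 col genes had none in any list. In each list the share for col genes was below the share for all genes. With 1 group of 2 replicates no test was made of that difference.

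**Figure D1:**
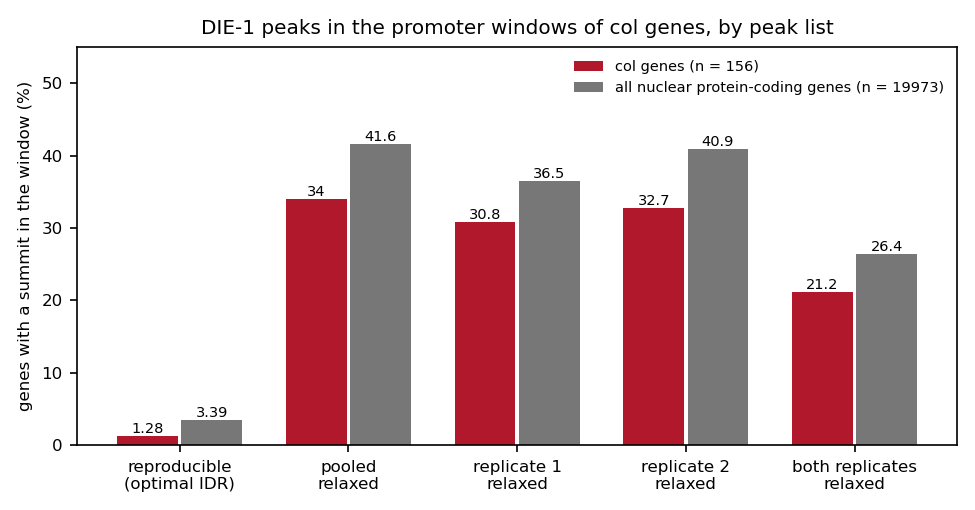
Share of genes (%) with a summit in the promoter window, for the 156 col genes (red) and all 19973 nuclear protein-coding genes (grey), in each peak list and in both replicate lists. The red bar is the lower of each pair, from 1.28% beside 3.39% in the reproducible list to 34% beside 41.6% in the pooled list.

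The gene models of the family differ from those of other genes. A single annotated transcript start was present in 136 col genes (87.2%), beside 72.6% of all genes. When only the outermost start of every gene was used, 52 col genes (33.3%) and 38.4% of all genes had a pooled summit. Col genes were also short, with a median length of 1220 bp beside 2027 bp for all genes. The part of either in the shares above was not tested.

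Where col genes had a summit, its median signal was close to that of all genes with one. Every entry compared had already passed the floor of its list, so the medians say little about the strongest peaks. The strongest pooled signal of the 53 col genes had a median of 34.2 (quartiles 25.7 and 47.2, range 19.2 to 235), beside 33.8 (quartiles 25 and 48.6) for the 8306 genes with a pooled summit. In replicate 1 the median over the 48 col genes was 18.4, beside 18.5 for all genes. In replicate 2 it was 20.9 over the 51, beside 21.2. The authors' q-value of the strongest pooled summit was 0.05 or lower in 9 of 53 col genes (17%), beside 21.7% of all. These were col-185, col-181, col-159, col-160, col-63, col-178, col-38, col-142 and col-124. Only for col-185 and col-181 did the strongest summit in each replicate list meet that cutoff as well.

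Support from the replicates was read as a replicate summit within 200 bp of the strongest pooled summit. Of the 53 col genes, 28 (52.8%) had such a summit in both replicates, beside 49.8% of all genes with a pooled summit. A further 7 had it in replicate 1 only (all genes 15.9%) and 12 in replicate 2 only (all genes 27.3%). The other 6, col-12, col-74, col-87, col-104, col-166 and col-168, had it in neither (all genes 7.03%). The 3 genes col-42, col-106 and col-119 had a summit in each replicate list but none in the pooled list.

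**Figure D2:**
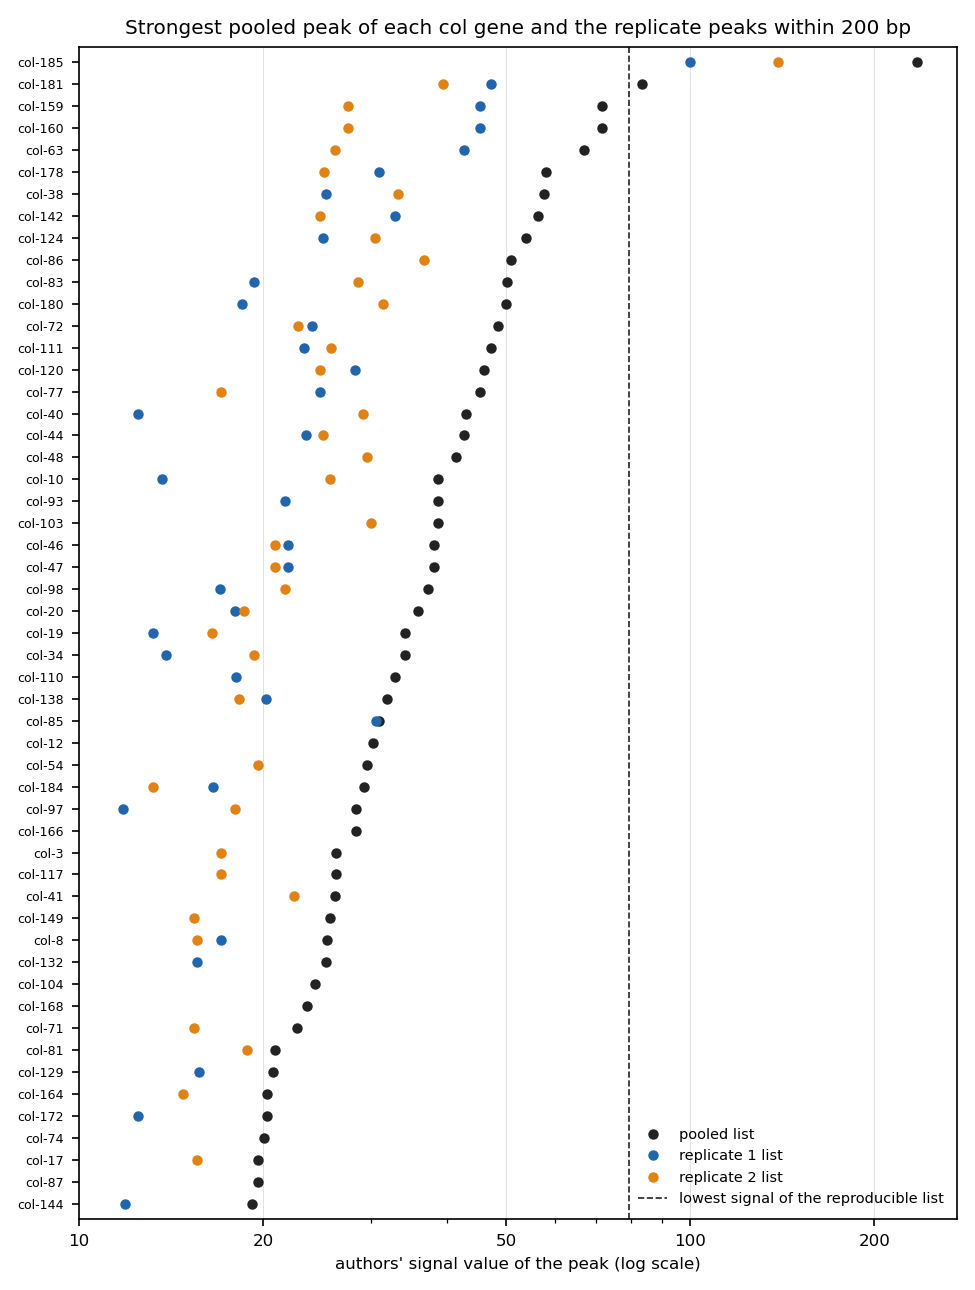
Signal (log scale) of the strongest pooled peak of each of the 53 col genes with one (black), with the strongest replicate 1 (blue) and replicate 2 (orange) summit within 200 bp. The dashed line is the weakest signal of the reproducible list, 79.4. Only col-185 and col-181 lie to its right, and 25 genes lack a blue dot, an orange dot or both. Values of different lists may not share a scale.

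col-185 had the strongest peak of the family by far. Its signal was 235 in the pooled list, 99.7 in replicate 1 and 139 in replicate 2, and it held rank 143 of the pooled list. The summit lay 934 bp upstream of the start, near the edge of the window, and inside a tRNA gene. This gene, H06A10.t1 (tRNA-Pro, chrX:13511970-13512041), points the same way as col-185. The capitals of the col-185 window are its bases. A weaker pooled peak of 33.1 had its summit 636 bp inside col-185, with a replicate 2 peak of 15.2 beside it and no replicate 1 peak. Whether the promoter of col-185 is bound apart from the tRNA gene was not tested.

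col-181 was the other reproducible gene, and its summit stood at its own start. It lay 62 bp upstream, with a signal of 83.4 pooled, 47.2 in replicate 1 and 39.4 in replicate 2. The replicate summits lay 17 and 69 bp upstream. At rank 1312 of the pooled list it was close to the end of the reproducible list. The nearest tRNA gene was 1279 bp from that summit, past the other end of col-181, where a stronger peak of 398 (162 in replicate 1, 238 in replicate 2) stood 1278 bp downstream of the start. With summits within 200 bp of tRNA genes left out, col-181 was the 1 col gene of the reproducible list (0.641%), beside 2.83% of all genes.

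Over the family, tRNA genes were rare at the summits. The strongest pooled summit lay within 200 bp of a tRNA gene in 2 of 53 col genes (3.77%), beside 1.61% of all genes with a pooled summit. The other gene was col-85. Its pooled signal was 31 and its replicate 1 signal 30.6, with no replicate 2 summit, and the summit lay 134 bp from the tRNA-Ile gene T21B4.t1 within the span of col-85. In a wider window, from 2000 bp upstream to 500 bp downstream, 5 col genes had a reproducible summit (3.21%, all genes 5.27%). The 3 that were added all lay at a short RNA gene: col-94 (337, 1906 bp upstream, inside a short RNA gene other than a tRNA), col-85 (223, 349 bp downstream, inside the same tRNA-Ile gene) and col-54 (97.2, 464 bp downstream, 18 bp from a tRNA gene). With col-185, 4 of these 5 genes had their strongest reproducible summit within 200 bp of a short RNA gene, beside 26.6% of the 1052 genes with a reproducible summit in the wide window. The count rests on 5 genes and was not tested.

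**Figure D3:**
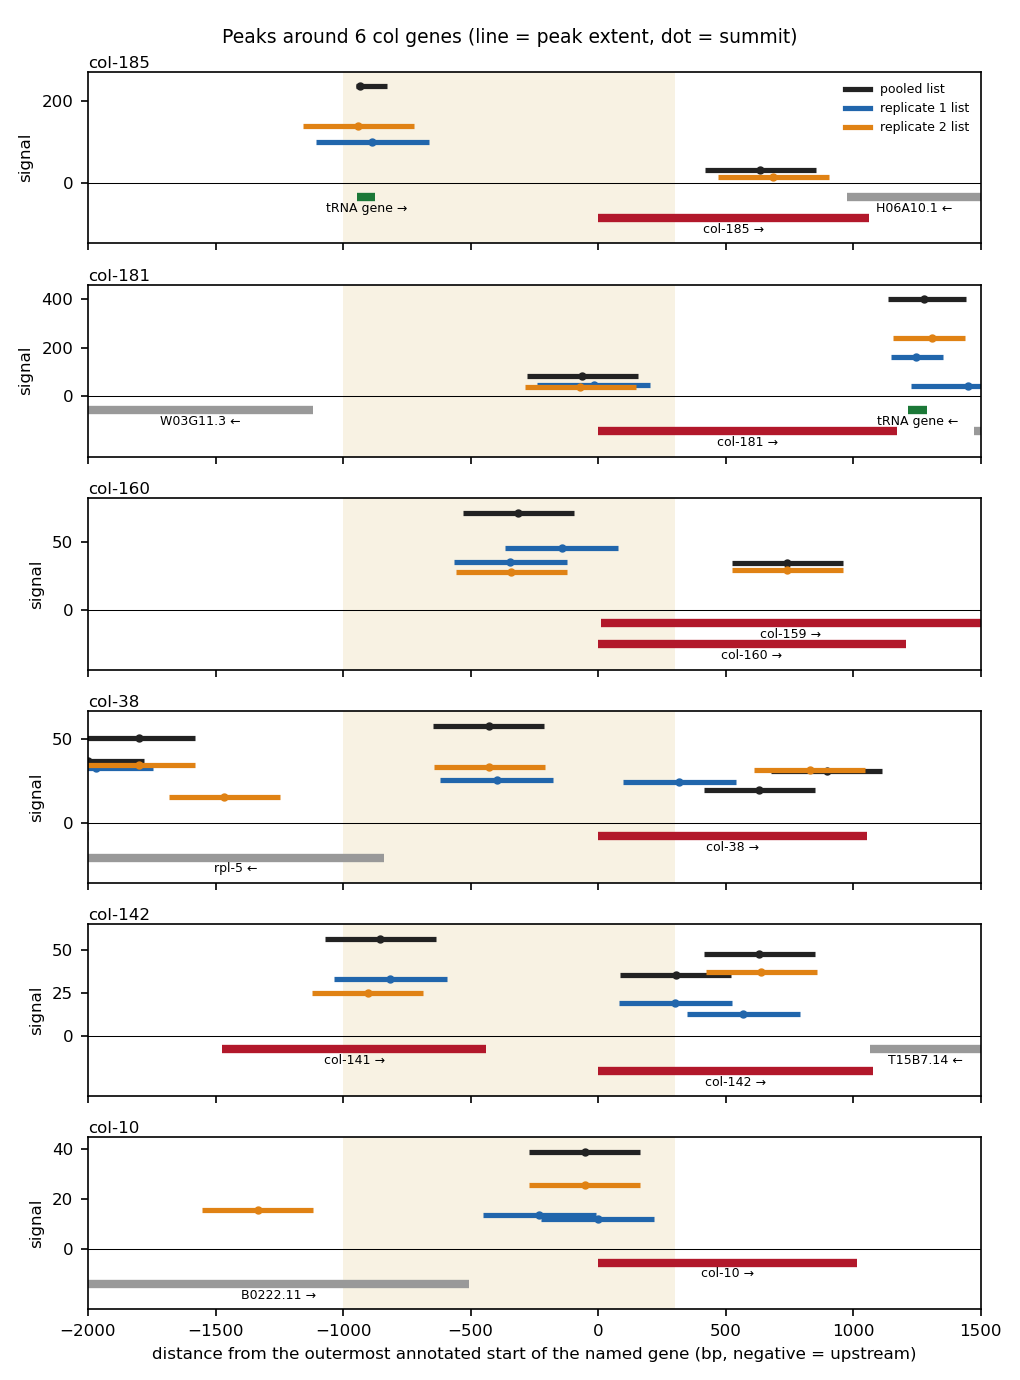
Peaks around 6 col genes, drawn by distance (bp) from the outermost annotated start of the named gene and by the authors' signal (linear scale, separate for each panel). Horizontal lines span peaks and dots mark summits (black pooled, blue replicate 1, orange replicate 2), bars under the axis are col genes (red), tRNA genes (green) and other protein-coding genes (grey), and the shaded band is the promoter window. The col-185 summit of 235 sits on a tRNA gene, while the col-181 summit of 83.4 sits at the start and the taller peak of 398 at a tRNA gene beyond the gene.

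Just under the weakest reproducible signal stood a tandem pair. col-159 and col-160 shared a pooled summit of 71.6, which lay 324 bp upstream of col-159 and 312 bp upstream of col-160. The strongest replicate 1 summit within 200 bp was 45.3 and the replicate 2 summit was 27.5. In replicate 1 a second summit of 34.9 lay closer, 345 bp upstream of col-160. The annotated starts of both genes are 12 bp apart because a long col-159 transcript model begins at col-160. The window also held a stretch of 218 bp with a copy of 96.8% identity inside the span of col-159 (chrV:13199105-13199322), but the shared summit lay outside that stretch. Its window, shown above, is a run rich in C and T on the genes' strand.

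col-63 followed with 67.1 pooled, 42.6 in replicate 1 and 26.2 in replicate 2. Its summit lay 645 bp upstream, in a UTR of ceh-8, a homeobox gene. When replicate 1 alone was cut to the length of the reproducible list, its strongest 1432 peaks gave 5 col genes, namely col-63, col-159, col-160, col-181 and col-185 (3.21%, all genes 3.44%). The strongest 1432 of replicate 2 gave col-185 alone (0.641%, all genes 3.22%).

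Next came 4 genes with pooled signals from 53.9 to 58, each with a summit in both relaxed replicate lists. col-178 had 58 pooled, 31 in replicate 1 and 25.2 in replicate 2, at 761 bp upstream and in no other gene's window. col-38 had 57.7, 25.4 and 33.2 in the same order, at 429 bp upstream. It lies head to head with rpl-5, a gene for a ribosomal protein of the large subunit, with 839 bp between them, and the summit was nearer to the rpl-5 start at 410 bp, so it cannot be assigned to col-38 by distance. col-142 had 56.4, 32.9 and 24.8, at 854 bp upstream inside the coding exon of col-141. Both are collagens known to lie downstream of the DBL-1 BMP-like signal that sets body size. col-141 itself had no summit in its window in any list, and col-41, another collagen placed downstream of that signal, had 26.2 pooled and 22.5 in replicate 2 only. col-124 had 53.9, 25.1 and 30.5, at 93 bp upstream, within an intron of qns-1.

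The remaining genes of the strongest 15 had pooled signals between 46 and 50.9. None of their pooled summits met the q-value cutoff used above, with −log10 q-values from 0.914 (col-120) to 1.25 (col-86). col-86 (50.9) was supported by replicate 2 only (36.7), with its summit in its own coding exon, 180 bp downstream of the inner of its 2 annotated starts. A replicate 1 summit of 23.7 was in the window but farther than 200 bp away. col-83 (50.2; 19.3 in replicate 1, 28.6 in replicate 2) and col-180 (49.9; 18.5 and 31.4) likewise had summits in their own coding exons, 88 and 282 bp downstream. col-72 (48.4; 24.1 and 22.8) and col-111 (47.2; 23.3 and 25.8) had them between genes, 567 and 726 bp upstream. col-120, known from worms with long life through reduced insulin-like signalling, had 46 pooled, 28.3 in replicate 1 and 24.8 in replicate 2. Its summit, 159 bp upstream, lay in a UTR of flh-1, whose span ends 20 bp from that of col-120.

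Other collagens of well-known role had pooled signals of 38.7 or less, or none. col-10, also known from the long-lived insulin pathway mutants, had 38.7 pooled, 13.7 in replicate 1 and 25.7 in replicate 2, with the summit 52 bp upstream of its start. col-19, the adult-specific cuticle collagen used as a marker of the adult epidermis, had 34.2, 13.2 and 16.5. Its summit was inside its own coding exon, 210 bp downstream of the start, and also within the span of ZK1193.2, which overlaps it. The replicate values of col-19 were below the col medians of 18.4 and 20.9. col-34, known for the shape of the male tail rays, had 34.2, 13.9 and 19.3, at 880 bp upstream. All 3 had a summit of both replicates within 200 bp, with pooled values at or just above the family median of 34.2. None of these entries met the q-value cutoff used above, so they are not by themselves binding sites. For col-10 the −log10 q-values were 0.553 pooled, 0.0938 in replicate 1 and 0.62 in replicate 2. In the same order they were 0.37, 0.074 and 0.122 for col-19, and 0.367, 0.0996 and 0.232 for col-34.

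The rest had lower values, or none. col-12 had 30.3 in the pooled list and no summit in either replicate, and its pooled summit lay in an intron of apc-10. Its near-identical neighbour col-13 had none in any list. col-17 had 19.6 pooled and 15.6 in replicate 2 only. col-99, which codes for a transmembrane collagen rather than a secreted one, had 20.6 in replicate 2 only, and col-7 and the dauer collagen col-2 had none in any list.

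The summits did not gather at a single distance from the start. Of the 53, 16 (30.2%) lay more than 500 bp upstream, 13 (24.5%) from 500 to 201 bp upstream, 11 (20.8%) from 200 to 1 bp upstream and 13 (24.5%) from 0 to 300 bp downstream. The shares for all genes were 27.1%, 25.7%, 22.9% and 23.9%. The median offset was -297 bp for col genes and -227 bp for all genes. In the replicates the col median was -148 bp in replicate 1 and -285 bp in replicate 2. At the edges of the window, col-40 (42.9, 980 bp upstream) and col-138 (31.9, 300 bp downstream) were just inside, while summits for col-65 (22, 1012 bp upstream) and col-143 (40.3, 330 bp downstream) were just outside.

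**Figure D4:**
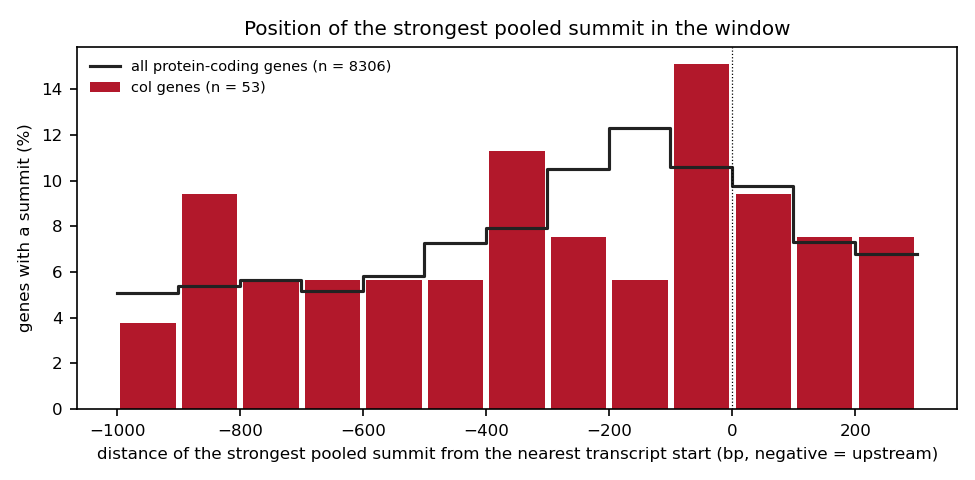
Share of genes (%) by distance of the strongest pooled summit from the nearest transcript start (bp, negative is upstream), in bins of 100 bp, for 53 col genes (red bars) and 8306 protein-coding genes (black line). The highest col bin, the last 100 bp before the start, holds 15.1% of the 53, and the line peaks in the bin before it at 12.3%. Summits more than 300 bp downstream of the nearest of several starts are not drawn.

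By position, 29 of the 53 summits (54.7%) lay between protein-coding genes and 12 (22.6%) in a coding exon of the gene's own. Another 5 lay in an intron of another gene, 3 in a UTR of another gene, 3 in a coding exon of another gene and 1 in the gene's own UTR. Each summit was counted once, with the gene's own coding exon first. Some of the 12 thus also lay within the span of another gene, such as col-19 (ZK1193.2), col-83 (F33A8.4) and col-138 (C52D10.3). These places were not counted over all genes, so they cannot be called particular to col genes. The 15 coding-exon windows had a median GC content of 55.4% (39.6 to 66.3), and the other 38 a median of 39.1% (18.8 to 58.4). The col-142 window shown above is the highest, at 66.3%; it is made of the GC-rich triplets that spell the collagen repeat. Over the 50 distinct summits the median was 42.1%, beside 40.6% for all promoter-window summits.

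Some summits cannot be given to a single gene. The 53 genes had 50 distinct strongest summits, since 3 pairs shared theirs: col-159 with col-160, col-46 with col-47 (38.1 pooled, 22 in replicate 1, 20.9 in replicate 2), and col-3 with col-117 (26.3 pooled, 17.1 in replicate 2 only). col-3 and col-117 face each other across 588 bp. The summit of 11 col genes also lay in the window of another protein-coding gene. That count was not made over all genes. The gene's own start was the nearest in 45 of 53 (84.9%), beside 82.5% of all genes, and the 8 others were col-3, col-8, col-12, col-38, col-46, col-71, col-142 and col-159.

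The share with a pooled summit varied between chromosomes. It was 13 of 24 col genes on II (54.2%, all genes there 43.5%) and 12 of 27 on X (44.4%, all genes 37%), the 2 chromosomes on which the col share was above that of all genes. On I it was 5 of 21 (23.8%, all genes 51.3%), on III 4 of 12 (33.3%, all genes 51.4%), on IV 12 of 41 (29.3%, all genes 41.3%) and on V 7 of 31 (22.6%, all genes 32.2%). Both reproducible summits were on X. The strand of the nearest upstream or overlapping protein-coding gene split the family evenly. With that neighbour on the opposite strand, 21 of 78 col genes had a pooled summit (26.9%, all genes 42.8%), and with it on the same strand, 32 of 78 (41%, all genes 40.5%). These splits were not tested.

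Copied stretches in the promoter windows were about as common for col genes as for others. A stretch of at least 200 bp with 95% identity or more elsewhere in the genome was found in the window of 18 col genes (11.5%), beside 10.2% of all genes. Of those 18, col-17, col-111, col-142, col-159, col-160 and col-168 had a pooled summit (33.3%), beside 25.7% of all genes with such a stretch. In 0 of the 6 did the strongest summit lie in the copied stretch, beside 118 of the 526 such genes overall (22.4%). How the authors placed the reads of such copies was not tested.

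Short motifs were counted on both strands, overlaps included, in the 101 bp summit windows and in the 101 bp that end at the outermost start. Their choice came after the data were seen, and a match is a description of letters only. The clearest feature of the family was at the starts: TATAAA, the TATA box, was in the start windows of 85 of 156 col genes (54.5%), beside 19.5% of all genes. On the gene's own strand it was in 77 (49.4%, all genes 12.7%), with a median position 38 bp upstream (quartiles 44 and 29 bp). col genes with a pooled summit held it in 26 of 53 (49.1%) and those without in 59 of 103 (57.3%). At the summits themselves it was in 5 of 50 (10%), beside 10.5% of all summit windows. The col-10 window is among the 5, since that summit stood at the start.

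The other motifs were present in few windows. AGATAA, read by GATA factors, was in 1 of 50 col summits (2%, all summits 5.57%) and 17 col starts (10.9%, all starts 8.72%). GAGAGA was in 5 (10%, all summits 11.6%) and 12 starts (7.69%, all starts 8.8%). AGGTCA, the core of elements bound by nuclear hormone receptors, was in 5 summits, those of col-40, col-44, col-81, col-149 and col-166 (10%, all summits 2.84%), and in 10 starts (6.41%, all starts 3.11%). GTTCNANNC, the letters of the B box that RNA polymerase III genes such as tRNA genes carry, was in 4 summits, those of col-40, col-77, col-97 and col-185 (8%, all summits 4.29%), and in 5 starts (3.21%, all starts 2.47%). The col-185 match belongs to the tRNA gene. The col-40 match is in capitals in its window, on the opposite strand beside an AGGTCA match. That summit lies 5512 bp from the nearest annotated tRNA gene. Its signal was 42.9 pooled, and summits of 12.5 in replicate 1 and 29.1 in replicate 2 lay within 200 bp of it but outside the promoter window. Inside the promoter window the replicate summits were 14.6 in replicate 1 (290 bp upstream) and 23.6 in replicate 2 (423 bp upstream).

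**Figure D5:**
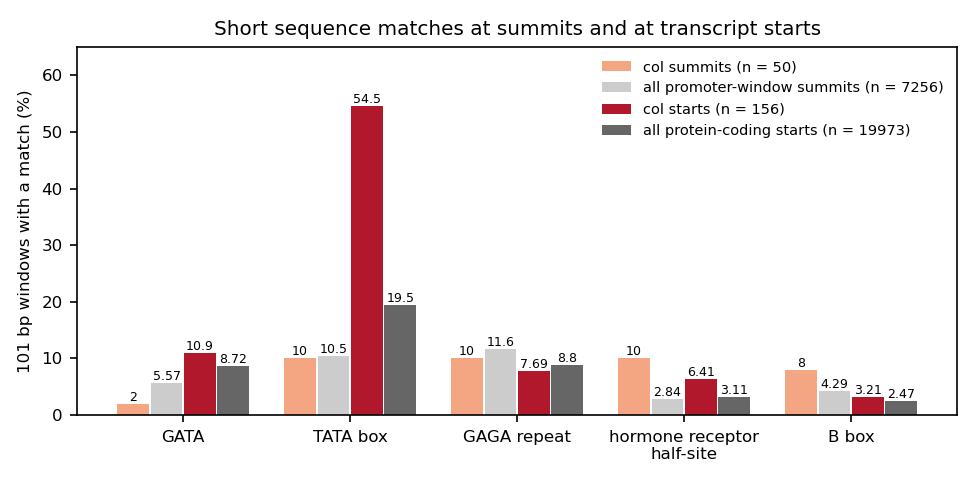
Share (%) of 101 bp windows with a match to each of 5 short motifs, at col summits, at all promoter-window summits, in the 101 bp before col starts and before all protein-coding starts. The TATA box at col starts, 54.5% beside 19.5% for all starts, is the tallest bar, and it is 10% at col summits.

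Genes that work with the col genes were counted in the same way. Of 20 cuticle collagens known by their mutant phenotypes instead of a col symbol, 13 had a pooled summit (65%, all genes 41.6%). None of them had a reproducible one (all genes 3.39%). The count was 11 in replicate 1 (all genes 36.5%), 11 in replicate 2 (all genes 40.9%) and 8 in both (all genes 26.4%). The strongest were bli-1, a collagen of the adult struts (57.4 pooled, 23.5 in replicate 1, 29.6 in replicate 2), dpy-17 (56.1; 21.1 and 33.1) and dpy-13 (51.1; 28.6 and 29.3), both needed for normal body length. The median of the 13 was 26.8, under the col median of 34.2.

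Of 13 enzymes and partners that fold, cut or cross-link collagen, 8 had a pooled summit (61.5%, all genes 41.6%). In both replicates 4 had one (all genes 26.4%), and 0 had a reproducible one (all genes 3.39%). pdi-2, a protein disulfide isomerase and subunit of the prolyl 4-hydroxylases that modify cuticle collagen, had 78.2 pooled, 36.7 in replicate 1 and 41.8 in replicate 2, at 146 bp upstream and just under the weakest reproducible signal. pdi-1 had 56.3, 26.9 and 29.7, and bli-4, a furin-like protease that trims procollagen, had 36.3 pooled with 28.1 in replicate 2 at the same place, 332 bp upstream; the replicate 1 summit in its window, of 14.1, was a separate one, more than 200 bp away. Of the 3 basement membrane collagens, which the cuticle does not contain, let-2 had 38.5 pooled and 28.7 in replicate 2 only. emb-9 and cle-1 had none in any list.

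The cuticlins, the insoluble non-collagen proteins of the cuticle, had a pooled summit in 12 of 35 genes (34.3%, all genes 41.6%). A reproducible one was found in 2 (all genes 3.39%). These were cutl-23 (159 pooled, 72.1 in replicate 1, 82.8 in replicate 2) and cutl-12 (101; 43.8 and 49.4), each with its summit inside a tRNA gene as for col-185. cutl-14 followed with 64.1, 22.8 and 33.9. Among 11 regulators of the epidermis and of molting, 9 had a pooled summit (81.8%, all genes 41.6%). In both replicates 4 had one (all genes 26.4%), and 1 had a reproducible one (all genes 3.39%). That gene was myrf-1, which codes for a membrane-bound transcription factor needed for larval molting, with 136 pooled, 48.3 in replicate 1 and 88.4 in replicate 2 at 313 bp upstream. nhr-25 had 41.2, 17.5 and 25.6, and blmp-1 had 36.7 with 32.2 in replicate 2 and none in replicate 1. The lists are short and were not tested against the col genes.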

How the data were processed

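The processed peak lists of the authors on ce11 were used; those on ce10 were not. Per the labels, the authors made ChIP-seq of 2 biological replicates, gave per-replicate lists and a pooled list as input for IDR, and an optimal IDR list from both. The signal column is the authors' enrichment value per peak as deposited, and the q column holds −log10 q-values as deposited. Aligner, peak caller, versions, signal normalization and the cutoff of the IDR step are, for these files, not given in the sources used here. Summits are the deposited peak start plus the summit offset.

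Genes were Ensembl 115 models on WBcel235, and sequences the RefSeq WBcel235 genome. A summit counted for every gene whose window held it. Copies of the windows at the outermost starts were sought with blastn 2.17.0; other steps ran in Python 3.11.15 with numpy 2.4.6 and matplotlib 3.10.9. Window assignment was tested on simulated data.

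The 1 group of 2 samples allowed no test between groups, and none was made. The members, lists, motifs and thresholds were chosen with earlier results of these data known. Genes were named if reproducible, among the 15 strongest pooled or 5 strongest per replicate, within 200 bp of a tRNA gene, of well-known role, sharing a summit, or among the 3 strongest of a related list; others named to complete a count or as examples were chosen after their values were seen. Alternatives were other windows, starts, distances, peak subsets and each replicate alone.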

Additional observations from a re-analysis of the deposited data

How the results depend on the processing

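The number of col genes with a reproducible summit was small and moved with most choices. It was 2 as reported. In the narrow window (500 bp upstream to 100 bp downstream) it was 1 (0.641%, all genes 2.26%). It was also 1 without summits near tRNA genes (all genes 2.83%) and without those near any short RNA gene (all genes 2.6%). With the 50% of peaks of highest signal it was again 1 (all genes 1.46%). It was 5 in the wide window, 2000 bp upstream to 500 bp downstream (3.21%, all genes 5.27%). No IDR list can be made from 1 replicate, so the strongest 1432 peaks of a single replicate list stood in for it. They gave 5 col genes in replicate 1 (all genes 3.44%) and 1 in replicate 2 (all genes 3.22%). The other counts moved with the window: from 53 to 35 (narrow) and 80 (wide) in the pooled list, from 48 to 29 and 84 in replicate 1, from 51 to 33 and 80 in replicate 2, and from 33 to 16 and 62 in both replicates. With the 50% of peaks of highest signal, 30 col genes were left in replicate 1, 30 in replicate 2 and 19 in both. A tRNA gene within 100 bp was found for 1 of the 2 genes. The median pooled signal was 29.3 in the narrow and 38.1 in the wide window (34.2 as reported). The median distance was -122 bp in the narrow window and -169 bp when a summit counted for the nearest start only (-297 bp as reported). A window changes these by its construction, and for the other alternatives the cause was not tested. The remaining 26 values were within 1.5 times the reported count or within the spread of the replicates. For the other windows and peak subsets, the share over all genes was recomputed for the reproducible and pooled lists only. In the pooled list the col share stayed below that of all genes in the narrow window (22.4% beside 28.4%) and in the wide window (51.3% beside 54%).

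No paired analysis was possible because the series has 1 group only. Reads and depth were not used here, and 2 replicates give little precision for any single gene.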
